A study of Caenorhabditis elegans with 6 samples.

Results

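Nematodes grow through larval stages that end in moults, in which the epidermis secretes a new cuticle and the animal sheds the old one. Nuclear receptors such as NHR-23 and NHR-25 are required in this cycle, and genes for matrix proteins, peroxidases, proteases and protease inhibitors are switched on ahead of each shedding. Transcripts of 9 genes of this machinery were examined in Caenorhabditis elegans: the receptor genes nhr-23 and nhr-25, the astacin protease genes nas-36 and nas-37, and mlt-7, mlt-8, mlt-9, mlt-10 and mlt-11, named for the moulting defects seen when their function is lost. They were found as the probe sets whose only annotated gene was 1 of these 9, which gave 17 probe sets of the 22625 on the array and 9 genes of 17118. Each of nas-36, nas-37 and mlt-8 had 1 probe set, the other 6 genes had several, and no probe set was annotated to a member together with another gene. Of the 17 names, 8 end in _s_at and 3 in _x_at, and matches of their probes to other transcripts were not examined.

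Whole-worm RNA was measured on 6 Affymetrix arrays. The wild-type group was 3 arrays of N2, the standard laboratory strain, and the mutant group was 3 arrays of hlh-30(tm1978), which carries an altered allele of the gene for HLH-30, a basic helix-loop-helix factor related to mammalian TFEB. Both were kept at 20 degrees Celsius. Embryos and larvae of the stages L1 and L2 had been collected, and within each biological replicate their RNA was put together before labelling. A value is therefore an average over tissues, over stages and over the points of the moulting cycle at which larvae were taken, and fewer cells of a type and less RNA per cell cannot be told apart. The sources used here do not say whether the mutant had been outcrossed.

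Every array value below is a log2 expression value as the authors deposited it, and the lowest possible reading was 2.04. Probe sets that reached 4 on 3 or more arrays were tested, which kept 12060 probe sets of 9113 genes. All 9 moulting genes were tested, through 16 of their 17 probe sets. The remaining one, 179352_at of mlt-11, stood at the floor on all 6 arrays. The markers of epidermis, the tissue that makes the cuticle, were present, with 13 of the 13 on the array tested and a median between 11.31 and 12.28 on each array. The hlh-30 transcript was lower on every mutant array than on every wild-type array at its 3 probe sets, with a log2 difference of −1.88 (SE 0.29; limma adjusted p 0.128) at the brightest. The sources used here do not place these probe sets relative to the tm1978 lesion, so they check the labels only by this separation.

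The comparison asked whether transcripts of the moulting machinery differed when hlh-30 was mutated. None of the 16 tested probe sets was called at an adjusted p under 0.05 in limma over all probe sets, where 0.133% of all tested probe sets were called. Adjusted p ran from 0.489 to 1. Wild-type and mutant arrays were fully separated at 1 member probe set of 16, or 6.25%, against 14.4% of all probe sets tested (10.7% with the mutant lower), and 1 member probe set had an unadjusted p under 0.05, against 9.05% of all. Both were the brighter probe set of mlt-7. For 14 of the 16 probe sets the 95% interval of the difference lay within a 2-fold change either way. These include the dim probe sets nas-36 189987_s_at, nhr-23 194130_s_at and nhr-25 193001_s_at, which read between 4.09 and 4.82. A change in the transcript can be understated at such dim values. For any 1 probe set, the smallest two-sided p that an exact permutation test over 3 and 3 arrays allows is 0.1.

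**Figure D1:**
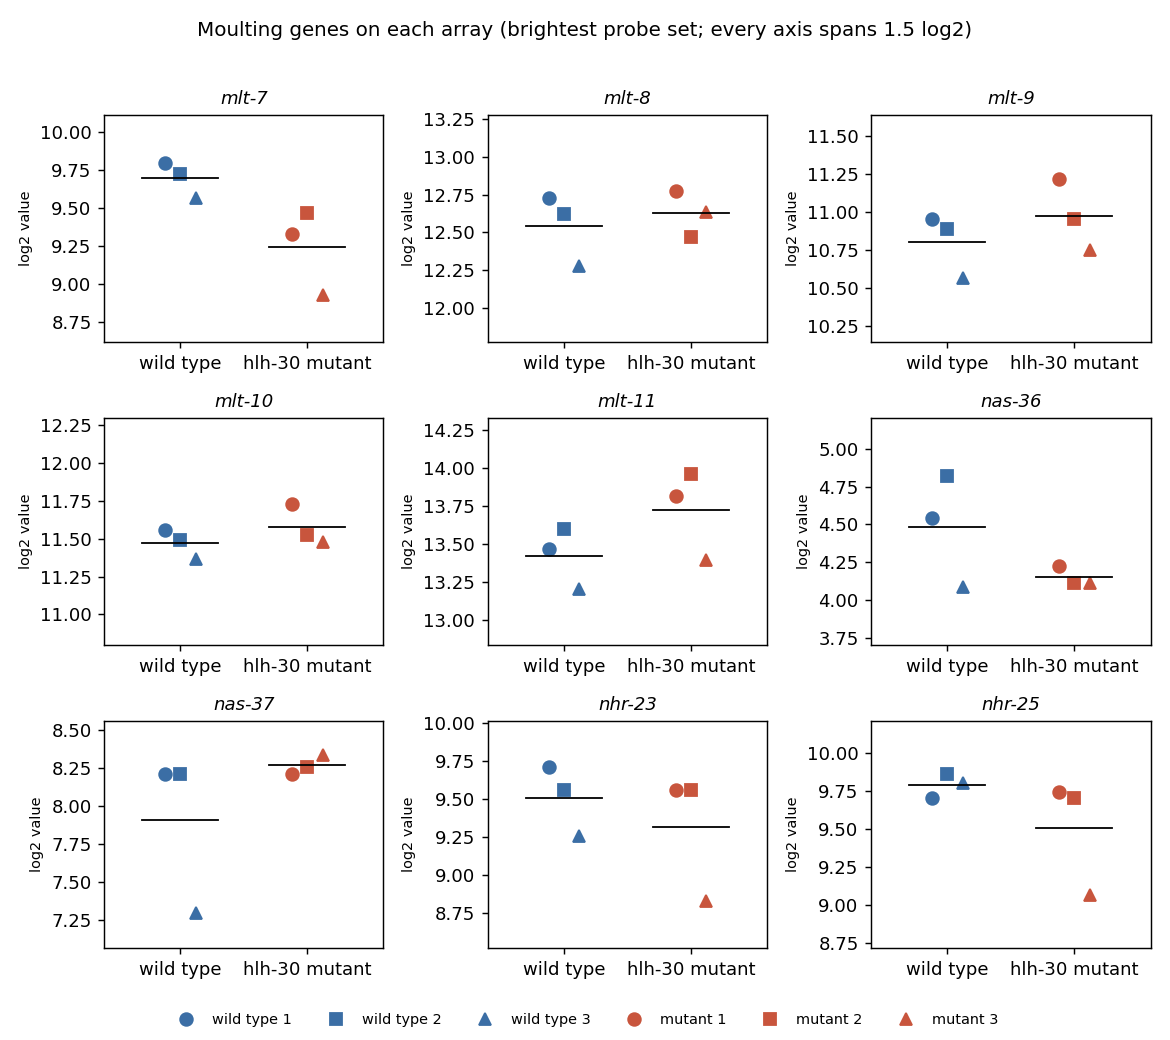
Deposited log2 values of the 9 moulting genes at their brightest probe sets on each array, wild type in blue and mutant in red, with the symbol giving the replicate number and the black bar the group mean. Each vertical axis spans the same 1.5 log2 units around its own centre, and the groups overlap in every panel except mlt-7, where the highest mutant array reads 9.46 and the lowest wild-type array 9.57.

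The receptors come first in the cycle. NHR-23 is the worm relative of vertebrate ROR and insect DHR3 receptors and is needed for moults and for the expression of many cuticle genes. At its brighter probe set, 175831_s_at, nhr-23 read 9.71, 9.56 and 9.26 on the wild-type arrays and 9.56, 9.56 and 8.83 on the mutant arrays. The groups overlapped, with mutant 1 and mutant 2 at the value of wild type 2 and only mutant 3 under all wild types. Wild type averaged 9.51 ± 0.23 (SD, n = 3) and the mutant 9.32 ± 0.43 (SD, n = 3), so the log2 difference was −0.19 (SE 0.25; 95% interval −0.84 to 0.46; limma adjusted p 0.828). Without mutant 3 the difference was 0.053 (SE 0.15), of the opposite sign. The dimmer probe set of nhr-23, 194130_s_at, lay between 4.31 and 4.71, close to the minimum for testing, and differed by 0.011 (SE 0.14).

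NHR-25 is the worm member of the Ftz-F1 and SF-1 receptor family and acts in epidermal development and moulting. At 175663_at, nhr-25 read 9.71, 9.86 and 9.81 in wild type and 9.74, 9.71 and 9.07 in the mutant. The first 2 mutant arrays lay within or at the edge of the wild-type range and mutant 3 lay under it. The means of 9.79 ± 0.080 (SD, n = 3) and 9.51 ± 0.38 (SD, n = 3) differed by −0.29 (SE 0.20; 95% interval −0.81 to 0.24; limma adjusted p 0.734). Without mutant 3 the difference was −0.067. The second probe set of nhr-25, 193001_s_at, gave the same value, 4.47, on 4 of the arrays and differed by −0.068 (SE 0.071). For both receptors the mean difference at the brighter probe set rested on mutant 3.

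The astacins are secreted zinc metalloproteases. NAS-36 and NAS-37 are needed for the old cuticle to open and be shed. nas-37 read 8.21, 8.21 and 7.29 in wild type and 8.21, 8.26 and 8.33 in the mutant. Of the 6 arrays only wild type 3 stood apart, below the other 5, which spanned 8.21 to 8.33, and wild type 1, wild type 2 and mutant 1 shared exactly the same value. The wild-type mean of 7.90 ± 0.53 (SD, n = 3) and the mutant mean of 8.27 ± 0.062 (SD, n = 3) differed by 0.36 (SE 0.28; 95% interval −0.35 to 1.08; limma adjusted p 0.753). Without wild type 3 the difference was 0.056. nas-37 was the only member whose arrays spanned over 1 log2 unit.

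nas-36 was dim. Its probe set read 4.54, 4.82 and 4.09 in wild type and 4.23, 4.11 and 4.11 in the mutant. The mutant arrays lay inside the wild-type range, since wild type 3 was the lowest of all. The log2 difference was −0.33 (SE 0.20; 95% interval −0.84 to 0.17; limma adjusted p 0.694), and at values this dim a change in nas-36 can be understated. Without wild type 3 the difference was −0.53 (SE 0.11; limma adjusted p 0.222).

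mlt-7 encodes a haem peroxidase of the cuticle, thought to work with the dual oxidase BLI-3 in cross-linking. At 188716_s_at it read 9.80, 9.72 and 9.57 in wild type and 9.33, 9.46 and 8.93 in the mutant. Every mutant array lay under every wild-type array, though the nearest pair, mutant 2 and wild type 3, lay closer than the mutant arrays did to each other. Wild type averaged 9.70 ± 0.12 (SD, n = 3) and the mutant 9.24 ± 0.28 (SD, n = 3), so the mutant mean was 0.729 of the wild-type mean on the linear scale (log2 difference −0.46, SE 0.16, 95% interval −0.87 to −0.044). The unadjusted p was 0.0362 and the limma adjusted p 0.489, and the exact permutation p was 0.1, the smallest this design can give. Across all tested genes, 13.6% had groups that did not overlap, so 1 of 9 members is close to that share. The difference ran from −0.57 to −0.30 when each array was left out in turn and was −0.37 without both arrays numbered 3 (limma adjusted p 0.112). With array quality weights, which give less weight to arrays that stand apart, mlt-7 fell by 0.40 on the log2 scale (SE 0.070; limma adjusted p 0.0412). That fit called 804 probe sets, 6.67% of those tested. The dimmer probe set of mlt-7, 172950_at, read 4.48, 4.56 and 4.48 in wild type and 4.48, 4.48 and 3.60 in the mutant, so only mutant 3 differed there. Here too a change can be understated, as the values are dim.

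MLT-11 is a large secreted protein with Kunitz-type protease inhibitor domains. It was the gene with the most probe sets, and its 3 tested ones differed in the same direction. At the brightest, 171847_s_at, mlt-11 read 13.47, 13.60 and 13.20 in wild type and 13.81, 13.96 and 13.40 in the mutant. Mutant 1 and mutant 2 lay over every wild-type array, while mutant 3 lay between wild type 3 and wild type 1. The log2 difference was 0.30 (SE 0.19; 95% interval −0.18 to 0.79; limma adjusted p 0.708). The other probe sets, 194086_at and 194187_x_at, differed by 0.29 (SE 0.23) and 0.24 (SE 0.26). At both of them wild type 3 was the lowest array, at 11.79 and 11.75, and without wild type 3 the differences were 0.066 and −0.0093. At the brightest it was 0.19 without that array.

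**Figure D2:**
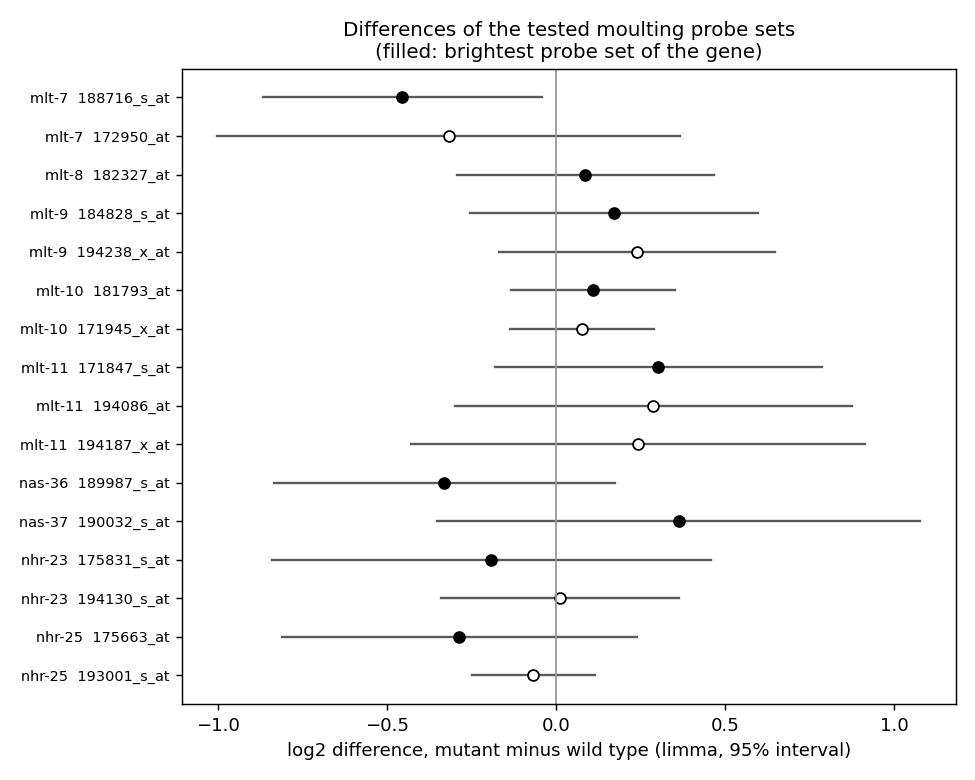
Log2 differences, mutant minus wild type, of the 16 tested probe sets of the moulting genes with their 95% intervals from limma, filled for the brightest probe set of a gene. Every interval includes 0 except that of mlt-7 188716_s_at, which ends at −0.044, and the probe sets of a gene share their sign except those of nhr-23.

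mlt-10 encodes a secreted, proline-rich protein made around the time of a moult, and its promoter is widely used to report moulting. It varied least among the members, with a pooled SD within groups of 0.118 at its brighter probe set. At 181793_at it read 11.55, 11.49 and 11.36 in wild type and 11.73, 11.52 and 11.48 in the mutant. The groups overlapped, with mutant 1 alone over all wild-type arrays and mutant 3 under 2 of them. The log2 difference was 0.11 (SE 0.094; 95% interval −0.13 to 0.35; limma adjusted p 0.782). This is the narrowest interval among the brightest probe sets, running from 0.912 to 1.28 times the wild-type level. The second probe set, 171945_x_at, gave 0.076 (SE 0.083).

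mlt-8 and mlt-9 were also found through the moulting defects that follow their loss. mlt-8 read 12.72, 12.62 and 12.28 in wild type and 12.77, 12.47 and 12.64 in the mutant, which were intermixed apart from the low wild type 3. Its log2 difference was 0.086 (SE 0.15; 95% interval −0.29 to 0.47; limma adjusted p 0.873), and −0.045 without wild type 3. At its brighter probe set mlt-9 read 10.95, 10.89 and 10.57 in wild type and 11.22, 10.95 and 10.75 in the mutant. Mutant 2 stood at exactly the value of wild type 1, and mutant 3 under 2 of the wild types. The difference was 0.17 (SE 0.17; 95% interval −0.26 to 0.60; limma adjusted p 0.789), and 0.24 (SE 0.16) at the second probe set.

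Over the 9 genes, 5 had a difference above 0 (mlt-8, mlt-9, mlt-10, mlt-11 and nas-37) and 4 below 0 (mlt-7, nas-36, nhr-23 and nhr-25). The median was 0.086, beside −0.010 over all tested genes, and it was −0.050 without both arrays numbered 3. The arrays numbered 3 held many of the low values. Wild type 3 was the lowest wild-type array for 8 of the 9, all but nhr-25, where 46.3% of all tested genes had wild type 3 lowest. Mutant 3 was the lowest mutant array for 6 of the 9 (mlt-7, mlt-9, mlt-10, mlt-11, nhr-23 and nhr-25), beside 41.1% of tested genes. nas-37 lay 0.79 under its mean over the 6 arrays on wild type 3 and 0.25 over it on mutant 3. nhr-23 and nhr-25 lay 0.59 and 0.58 under theirs on mutant 3, and mlt-7 0.54.

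As a measure of likeness, the root mean square distance between the centred log2 profiles of a pair of genes over the 6 arrays was computed. The closest members were mlt-9 and mlt-10 at 0.097. mlt-8 and mlt-10 were the next closest pair, and mlt-8 and mlt-9 followed at 0.126. The profiles were not scaled, so genes that vary little lie close together whatever their pattern, and mlt-10 varied least among the members. These small distances therefore do not by themselves show a shared pattern. mlt-7 and nhr-25 were at 0.154, and the farthest pair was nas-37 and nhr-25 at 0.520. Among all other tested genes, those nearest to nas-37 were ZK1307.1 at 0.036, F52E1.5 at 0.053 and mbug-1 at 0.064. They were picked for this likeness, so, like nas-37, they read lowest on wild type 3, at 11.15, 7.56 and 9.04. For the same reason the other 5 arrays of each lay close together.

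**Figure D3:**
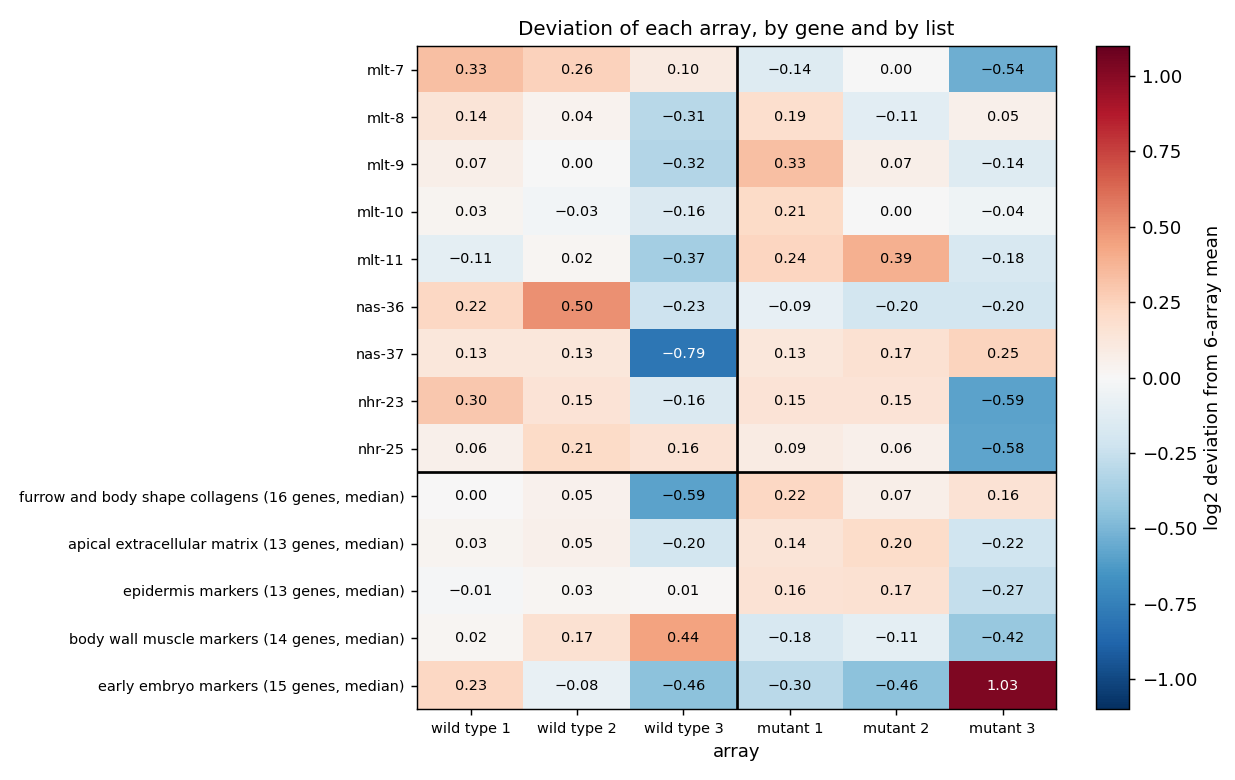
Log2 deviation of each array (columns) from the mean of the 6 arrays, for the 9 moulting genes at their brightest probe sets and, under the line, for the median of 5 gene lists; blue is low and red is high. The low cells sit on wild type 3 for nas-37 (−0.79) and the collagens (−0.59) and on mutant 3 for nhr-23, nhr-25 and mlt-7 (−0.59, −0.58 and −0.54), while early embryo markers are high on mutant 3 (1.03).

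The other lists deviated on several arrays. The collagens of cuticle furrows and body shape deviated by −0.59 in the median on wild type 3, by under 0.05 on the other wild types and by 0.067 to 0.22 on the mutants. Wild type 3 was the lowest wild type for 12 of these 16 genes. Early embryo markers deviated by 1.03 on mutant 3, by −0.46 on both wild type 3 and mutant 2 and by −0.30 on mutant 1, and mutant 3 was the highest mutant for 14 of 15 of them. Their summed level ran from 11.57 to 12.70 in wild type and from 11.35 to 13.88 in the mutant on the log2 scale, and 7 of the 22 markers were under the minimum for testing. Body wall muscle markers deviated by 0.44 on wild type 3 and −0.42 on mutant 3, with summed log2 levels of 17.72 to 18.002 in wild type and 17.38 to 17.50 in the mutant. Of these 14 markers 12 lay below 0, where 52.1% of all tested genes did, and their median was −0.41. Among them tnt-2, a troponin T, fell by 1.01 on the log2 scale (SE 0.070; limma adjusted p 0.0352). The 2 above 0 were hlh-1 at 0.52 (SE 0.18), higher on every mutant array, and act-4 at 0.074 (SE 0.15). Without both arrays numbered 3, 5 muscle markers lay above and 9 below 0, with a median of −0.19. Intestine markers lay below 0 in 9 of 11 cases with none called, while elt-2 at 0.29 (SE 0.13) and cpr-6 at 0.10 (SE 0.21) lay above it. Without both arrays numbered 3 the intestine split was 4 above to 7 below. The summed levels of the intestine markers, 16.60 to 16.85 in wild type and 16.35 to 16.58 in the mutant, did not overlap either. Such a sum is weighted to the brightest genes, and asp-1 averaged 15.71 in wild type and 15.49 in the mutant. Epidermis markers deviated by −0.27 on mutant 3 and by 0.012 on wild type 3, with summed levels of 15.55 to 15.64 and 15.35 to 15.74. Of the 13 tested, 4 lay above and 9 below 0, with a median of −0.13 and none called. Without mutant 3 the split was 9 above to 4 below, and without both arrays numbered 3 it was 8 to 5. Groups did not overlap for 2 of the 13, which were higher in the mutant, beside 13.6% of all tested genes in either direction. The part of stage or tissue content in the values of the moulting genes was not tested.

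The rest of the moulting machinery was followed through lists chosen from general knowledge. Kinases and partners that control trafficking at the epidermal surface had 6 of 7 genes tested, 2 above and 4 below 0, with a median difference of −0.030 and none called. The split was 4 above to 2 below after quantile normalization (median 0.041), after median centring (0.031) and without mutant 3 (0.073). They were nekl-3 at 0.11 (SE 0.074) and nekl-2 at −0.023, which encode NIMA-related kinases, their ankyrin-repeat partners mlt-2 at −0.038 and mlt-3 at 0.0088, and the endocytic receptor gene lrp-1 at −0.064 with its adaptor dab-1 at −0.31 (SE 0.23). mlt-4 read at most 2.51 and was not tested.

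Of 9 tested genes of cuticle cross-linking, collagen processing and protease inhibition, 4 lay above and 5 below 0, with a median of −0.040 and none called. That median was 0.021 after median centring and 0.047 without mutant 3. bli-3, the dual oxidase, differed by 0.0045 (SE 0.20) and its tetraspanin partner tsp-15 by −0.31 (SE 0.15). bli-5, a Kunitz-type inhibitor, differed by 0.047 (SE 0.12). The peroxidase gene skpo-3 had the largest difference of the list. It read 9.20, 9.45 and 8.70 in wild type and 7.92, 7.86 and 7.82 in the mutant, with no overlap. This was 1 of the 9 genes, beside 13.6% of all tested genes without overlap. The log2 difference was −1.25 (SE 0.20; limma adjusted p 0.143). Another peroxidase gene, skpo-2, differed by 0.23 (SE 0.21), and skpo-1 stood at the floor.

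Among astacins other than nas-36 and nas-37, 15 of the 34 on the array were tested. Of these 4 lay above and 11 below 0, with a median of −0.14 and none called, and after quantile normalization or median centring the split was 6 to 9. The smallest p-values belonged to toh-1 at −1.33 (SE 0.33; limma adjusted p 0.316), nas-6 at −0.25 (SE 0.074) and nas-9 at −0.52 (SE 0.18), each without overlap between the genotypes. These were the 3 of the 15 without overlap, beside 13.6% of all tested genes in either direction, and they were picked by p. NAS-6 is a digestive-tract astacin of the pharynx.

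Matrix proteins of the precuticle and the apical surface had 9 of 13 above 0 and none called, with a median of 0.072 that was −0.0053 without wild type 3. After quantile normalization or median centring 11 of the 13 lay above 0. lpr-1, a lipocalin, differed by 0.54 (SE 0.26), noah-1, a zona pellucida domain protein, by 0.19 (SE 0.12), and fbl-1, a fibulin also found in basement membranes, by −0.28 (SE 0.17). Of these 13 only lpr-1 had groups without overlap, higher in the mutant, beside 13.6% of all tested genes in either direction. The collagens had 15 of 16 above 0, with a median of 0.35, which was 0.14 without wild type 3, and none was called. Their split was 14 to 2 after quantile normalization and 16 to 0 after median centring. dpy-2 at 0.34 (SE 0.14), dpy-7 at 0.35 (SE 0.14) and lon-3 at 0.43 (SE 0.19) had the smallest p. Groups did not overlap for 4 of the 16 collagens, these included, all higher in the mutant, beside the same 13.6% of all tested genes.

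**Figure D4:**
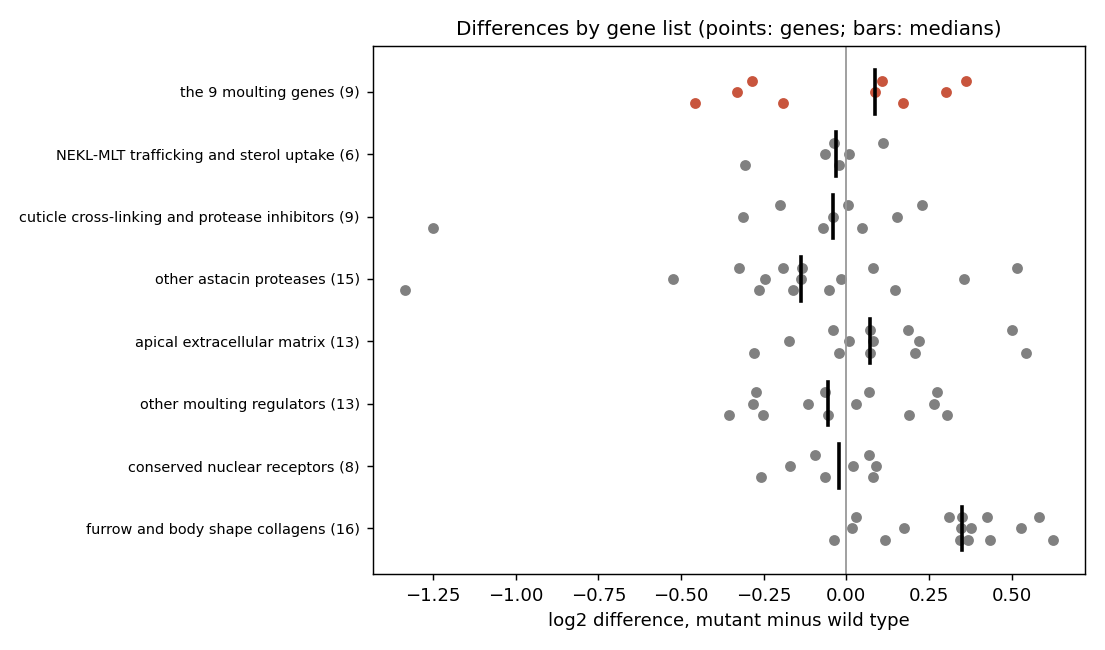
Log2 differences, mutant minus wild type, of the tested genes of each list, 1 point a gene with the number of genes in parentheses and a black bar at the median. The 9 moulting genes lie on both sides of 0 between −0.46 and 0.36, most collagens lie above 0, and the genes farthest below 0 are toh-1 (−1.33) and skpo-3 (−1.25).

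Of 13 tested regulators with roles in moulting or its timing, 6 lay above and 7 below 0, with a median of −0.055 and none called. That median was 0.0055 after quantile normalization, 0.0057 after median centring and 0.12 without mutant 3. myrf-2, a membrane-bound transcription factor of the MYRF family, read 10.29, 10.31 and 10.10 in wild type and 9.97, 9.83 and 9.83 in the mutant. These did not overlap, and the log2 difference was −0.35 (SE 0.084; limma adjusted p 0.276). Its relative myrf-1 differed by −0.055 (SE 0.15). elt-1, a GATA factor of the epidermis, differed by −0.25 (SE 0.081; limma adjusted p 0.453), also without overlap. Such separation held for 2 of the 13, beside 13.6% of all tested genes. lin-42, the worm relative of Period, differed by 0.26 (SE 0.27), and kin-20, a casein kinase, by −0.28 (SE 0.14). Nuclear receptors with relatives outside nematodes, other than nhr-23 and nhr-25, had 8 tested genes with 4 on each side of 0, a median of −0.023 and none called. The median was 0.043 after quantile normalization and 0.038 after median centring. The smallest p among them belonged to nhr-64, at −0.26 (SE 0.11), and nhr-91 and nhr-69 followed at −0.065 and 0.090. Of the genes related to mlt-10, only mltn-9 and mltn-3 were tested, at 0.42 (SE 0.17) and 0, the latter with 1 value on all 6 arrays.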

How the data were processed

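Labelled RNA of 6 samples, 3 per genotype, was measured on Affymetrix arrays. The authors deposited log2 values per probe set, made with GCRMA and limma per the submitters' processing notes, with versions and settings not given in the sources used here. Identical values occurred on 2 or more arrays for 9 of the 16 tested member probe sets and 42.0% of all tested. Scanner intensities were not used here, so signal over background and scan batches could not be examined. Of the probe sets, 20766 had 1 gene, 887 several and 972 none (77 of these controls, which were left out), and 20701 of the first kind matched RefSeq by gene number.

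Samples were grouped by title. Probe sets reading at least 4 on 3 of 6 arrays were fitted with limma 3.58.1 in R 4.3.3 (mutant minus wild type, no covariate, Benjamini-Hochberg adjustment, threshold 0.05), and all adjusted p-values are from such fits. A gene was represented by its brightest tested probe set. The fit was tested on simulated data. Named genes were all members, up to 3 genes per list with the smallest p, any gene of the trafficking, cross-linking and regulator lists, and the 3 genes nearest in profile to members spanning at least 1 log2 unit. Also named were hlh-30 and the muscle and intestine markers with a difference above 0. The members and lists were chosen with earlier results of these data known, and lists are described by counts and medians with no set test. The planned promoter motif search was not made, as promoter sequences were not used here. The alternatives were other filters, scalings and variance models, array weights, the replicate number as a block, and arrays left out. The number of arrays limits the precision.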

Additional observations from a re-analysis of the deposited data

How the results depend on the processing

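No member probe set was called under 14 of the 15 alternatives, and 1, mlt-7 188716_s_at, was called with array quality weights (−0.40, limma adjusted p 0.0412). Over these alternatives its adjusted p ran from 0.0412 to 1. Of 236 recomputed member differences, 7 changed sign. For nhr-23 194130_s_at they ran from −0.060 to 0.14 with an array left out, and were −0.049 without wild type 2, −0.060 without mutant 1 and −0.046 without mutant 2. For nhr-23 175831_s_at they ran from −0.32 to 0.053, the latter without mutant 3. For mlt-8 they ran from −0.045 to 0.18 and for mlt-11 194187_x_at from −0.0093 to 0.39, both lowest without wild type 3, and mlt-8 read −0.050 without both arrays numbered 3. The cause was not tested. Over the array, 16 probe sets were called, beside 5 with no filter, 25 after quantile normalization, 804 with array quality weights, 0 to 4 with each array left out and 239 without both arrays numbered 3.

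The replicate number as a block called 0 probe sets and no member, with the lowest member adjusted p at mlt-7 (0.646). Nothing in the labels ties a number to a common culture or day, and the deviations of same-numbered arrays correlated at −0.41, −0.446 and −0.527 over tested genes, so the numbers were not taken as pairs.

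List medians moved by more than their spread between arrays in a few settings. The other astacins read −0.21 to −0.14 with an array left out and −0.028 without both arrays numbered 3. For the other regulators these values were −0.16 to 0.12 and 0.20, for epidermis markers −0.28 to 0.15 and 0.19, for neuron markers −0.18 to −0.00045 and 0.039, for early embryo markers −0.30 to 0.44 and −0.47, and for muscle markers −0.52 to −0.31 and −0.19. With all arrays the median was −0.13 for epidermis markers (SD of array medians 0.18) and −0.11 for neuron markers (SD 0.076). It was 0.24 for early embryo markers (SD 0.62) and −0.41 for muscle markers (SD 0.19). The conserved receptors ran from −0.080 to 0.030 with an array left out.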
